A study of Mus musculus with 12 samples.

Results

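The 10 genes described here, of 23715 genes measured in the series, are imprinted growth-control genes that are active around birth, namely *H19*, *Meg3*, *Rian*, *Dlk1*, *Grb10*, *Plagl1*, *Ndn*, *Mest*, *Peg3* and *Gnas*. They were chosen by name, as members of a known network of imprinted genes, with earlier results of these data known. The level of a gene in a mouse was the sum of the deposited FPKM values (fragments per kilobase, corrected for library size) of its RefSeq transcripts. For 9 of the 10 genes the transcripts were matched by accession to the NCBI gene table of GRCm38. For *H19* the table lists accessions that the files do not hold. The files hold NR_001592, which is known from general knowledge, and not from the table, as the earlier RefSeq record of mouse *H19*. It is called NR_001592 here and is kept out of the counts over members.

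An imprinted gene is transcribed mainly from the copy of 1 parent, because DNA methylation laid down in the egg or sperm marks a control region near it. Imprinted genes often lie in clusters, and in general paternally expressed genes promote growth before and after birth while maternally expressed genes restrain it. Many of them are high in fetal and newborn tissue, mesenchyme included, and decline in the weeks after birth. PLAGL1, a zinc finger transcription factor, and the noncoding RNA *H19* are known regulators of other genes of the network.

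The libraries came from 12 C57BL/6 mice in 4 groups of 3, and RNA was sequenced after preparation with the TruSeq RNA kit. P-KO mice lack *Med23*, a subunit of the Mediator complex, in mesenchymal stem cells, and P-Ctrl mice are their littermates. R-Het mice are *Runx2*+/-, with 1 copy of the gene of the osteoblast transcription factor RUNX2, and R-WT mice are their wild-type controls. The first 2 groups are called the P set and the others the R set. The labels give the tissue as calvaria, the roof of the skull, of newborn animals, whereas the study's methods give parietal bone at postnatal day 2. In the P-KO mice, *Med23* exons flanked by loxP sites (*Med23* fl/fl) are removed by Cre under the *Prx1* promoter, which is active in limb and craniofacial mesenchyme, so that other cells of the bone keep the gene. P-Ctrl mice are called wild type in the labels and *Med23* fl/fl in the study's text. The *Runx2* allele is a germline one that all cells carry. Each library is a mixture of cells, and fewer cells of a type cannot be told apart from less RNA per cell.

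FPKM sums ran from 891329 to 1068933. Judged from the lowest values, the libraries held about 7760000 to 12300000 fragments each. By this estimate every P-KO library (8510000 to 8910000) held fewer fragments than every P-Ctrl library (9330000 to 11220000). The R-WT (8910000 to 12300000) and R-Het (7760000 to 9770000) libraries overlapped, and R-Het 3 was the lowest of all. The part of depth in the results was not tested. The filter on low values asked for 1 FPKM or more in 3 or more mice, which 13059 genes and all 10 of these genes met. Summed levels of *Med23* were 5.32 ± 0.73 FPKM in P-Ctrl and 5.30 ± 0.42 FPKM in P-KO mice, and those of *Runx2* were 31.6 ± 5.39 FPKM in R-WT and 33.5 ± 2.76 FPKM in R-Het mice (SD, n = 3 each), so that the summed level of neither targeted gene marked its mutant group. A summed level does not show the removed *Med23* exons apart from the rest of the transcript. The study reports from western blots that MED23 protein was largely lost in bone marrow mesenchymal stem cells of such mice. In the P set, *Runx2* was at 30.5 to 38.0 FPKM in P-Ctrl and 23.7 to 28.7 FPKM in P-KO mice (log2 fold change -0.40, adjusted p = 0.127 by limma). *Xist*, expressed by females, was present in P-Ctrl 2, P-Ctrl 3 and R-WT 1 and in no mutant mouse. The 10 skeletal muscle markers summed to 26.3 to 1549 FPKM in P-Ctrl, 665 to 4654 in P-KO, 2139 to 6387 in R-WT and 30.9 to 209 in R-Het mice, and 9 of them were called lower in R-Het mice. The 10 osteoblast markers, which mark the labelled tissue, summed to 42600 to 44310 FPKM in P-Ctrl, 20679 to 27886 in P-KO, 34649 to 39493 in R-WT and 24865 to 32119 in R-Het mice. Both mutant groups lay below their controls in this sum. Gene by gene, all 10 osteoblast markers had a log2 fold change below 0 in P-KO mice (median -0.48), but in R-Het mice 5 were above and 5 below 0 (median -0.0013) and none was called. Of the other marker lists, cartilage summed to 160 to 209 FPKM in P-Ctrl and 93.8 to 107 in P-KO mice, epidermis to 7.56 to 9.61 and 9.86 to 13.9 and erythroid cells to 15703 to 21387 and 8660 to 14406. In R-WT and R-Het mice epidermis summed to 9.65 to 14.0 and 15.03 to 22.2 FPKM, adipocytes to 332 to 485 and 187 to 265 and endothelium to 184 to 216 and 153 to 173, while the other sums overlapped within their sets. Although the erythroid sums of R-WT and R-Het mice overlapped, all 7 erythroid markers tested had a log2 fold change below 0 in R-Het mice (median -1.07), none of them called and each with an unadjusted p under 0.05. No marker was at 0 in all mice. Their part in the results below was not tested beyond a fit of all 12 mice with the muscle markers as a covariate, called the muscle covariate below.

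The 10 genes were all expressed well above the typical gene. FPKM is scaled by transcript length, so levels of different genes can be set side by side. NR_001592 was the most abundant, with a mean of 3001 FPKM over the 12 mice (2021 to 4212), which placed it at rank 65 of all 23715 genes. *Gnas* followed with 1415 FPKM (1060 to 1789.7), then *Mest* with 231 FPKM (130.02 to 309.8) and *Grb10* with 135 FPKM (121 to 159.9). This order held in each of the 12 mice. *Ndn* had a mean of 95.1 FPKM, *Plagl1* 91.3, *Rian* 83.4, *Meg3* 50.5, *Dlk1* 30.3 and *Peg3* 25.3. Neighbours in this lower part of the order were often not separated: *Ndn* exceeded *Plagl1* in 7 of 12 mice, *Plagl1* exceeded *Rian* in 8, *Meg3* exceeded *Dlk1* in 11 and *Dlk1* exceeded *Peg3* in 9, whereas *Rian* exceeded *Meg3* in all 12. Even *Peg3*, the lowest, lay above 86.2% of all genes.

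**Figure D1:**
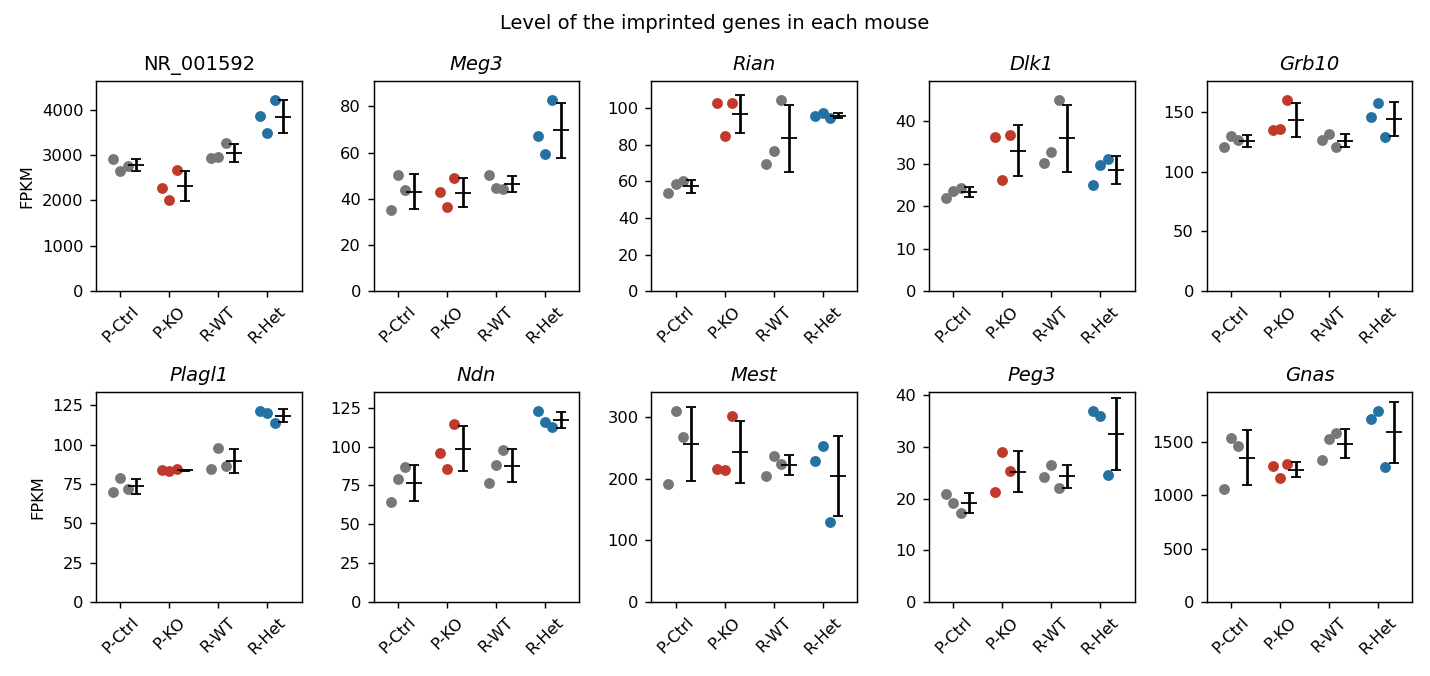
FPKM (linear axis from 0) of NR_001592 and the 9 matched imprinted genes in each of the 12 mice, by group, with the mean and SD of the 3 mice beside the points. The 3 P-KO mice lie above the 3 P-Ctrl mice for *Rian*, *Dlk1*, *Grb10*, *Plagl1* and *Peg3*, and the 3 R-Het mice lie above the 3 R-WT mice for NR_001592, *Meg3*, *Plagl1* and *Ndn*.

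The first comparison asks whether loss of *Med23* in mesenchyme moved these genes. *Rian*, a noncoding RNA of the *Dlk1*-*Dio3* cluster, rose 1.69-fold by the ratio of group means in P-KO mice and was the only 1 of the 9 matched genes to pass the test. Across all 13059 genes, 1.57% passed in either direction and 1.01% passed as higher (132 genes higher and 73 lower, which became 42 and 65 with the libraries rescaled to the same sum). The 3 P-KO mice exceeded all 3 P-Ctrl mice for 5 of the 9 genes, *Rian*, *Dlk1*, *Grb10*, *Plagl1* and *Peg3*, against 19.6% of all genes, and for none of the 9 did all P-KO mice lie below, against 7.68% of all genes. These counts and shares are for the deposited values, whose sums were 973779 to 1051757 in P-KO and 891329 to 988236 in P-Ctrl mice. With the libraries rescaled to the same sum, *Grb10*, *Plagl1* and *Peg3* overlapped between the groups (log2 fold changes 0.08, 0.09 and 0.28). As a group, the 9 had a median log2 fold change of 0.19, beside 0.06 for all genes tested. Tests were made with limma on log2(FPKM + 1), 3 mice against 3, with Benjamini-Hochberg adjustment over all genes, and fold changes below are on that scale, which understates the change of genes with low values.

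*Rian*, *Meg3* and *Dlk1* lie in the same imprinted cluster on chromosome 12. *Dlk1*, a paternally expressed transmembrane protein of the Notch ligand family that holds back adipocyte and osteoblast differentiation, spans 109452485 to 109463336. *Meg3* and *Rian*, maternally expressed noncoding RNAs transcribed in the same direction, span 109540996 to 109571729 and 109603945 to 109661716. *Meg3* encloses 1 miRNA hairpin of the RefSeq table (*Mir770*) and *Rian* 3 (*Mir341*, *Mir1188* and *Mir370*). The 250 bases before a RefSeq start of each of the 3 genes are shown because *Rian*, the gene that passed the test, is set against its neighbours in the cluster (RefSeq, GRCm38.p6, plus strand, chr12:109452573-109452822, chr12:109540746-109540995 and chr12:109603695-109603944). The *Dlk1* window lies inside the span given above, before a start other than the first base of that span. The *Meg3* and *Rian* windows end at the base before their spans. Capitals mark the letters TGTGGT or, on the other strand, ACCACA, the core recognised by RUNX proteins.
Dlk1: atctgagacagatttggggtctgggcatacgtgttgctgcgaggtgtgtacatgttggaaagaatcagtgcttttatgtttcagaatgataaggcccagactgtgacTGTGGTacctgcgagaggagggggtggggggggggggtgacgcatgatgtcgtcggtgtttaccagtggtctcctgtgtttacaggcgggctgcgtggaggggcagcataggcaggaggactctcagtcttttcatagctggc
Meg3: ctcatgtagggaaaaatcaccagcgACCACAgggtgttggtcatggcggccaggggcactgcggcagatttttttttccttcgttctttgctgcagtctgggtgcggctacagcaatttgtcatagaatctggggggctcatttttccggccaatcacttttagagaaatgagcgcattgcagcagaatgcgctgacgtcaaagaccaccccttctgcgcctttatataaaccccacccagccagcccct
Rian: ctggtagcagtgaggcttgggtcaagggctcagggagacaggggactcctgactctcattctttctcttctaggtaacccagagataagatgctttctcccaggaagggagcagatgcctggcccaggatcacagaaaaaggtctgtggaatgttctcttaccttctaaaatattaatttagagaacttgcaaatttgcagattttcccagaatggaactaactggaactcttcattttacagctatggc
The *Dlk1* and *Meg3* windows each hold 1 such match and the *Rian* window holds none. Of all 32851 promoter windows of this length in the table, 14% hold at least 1 match, and 2 of the 16 windows of the 9 matched genes do. The *Meg3* window shown holds 10 CG dinucleotides and the *Rian* window 0, against a median of 6 over all windows. A second *Meg3* window, chr12:109545148-109545397, lies inside the gene and holds 0 matches and 0 CG dinucleotides.

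*Rian* was at 53.5, 58.7 and 60.1 FPKM in the 3 P-Ctrl mice and at 102.8, 84.9 and 102.8 FPKM in the 3 P-KO mice. The groups did not overlap, and the gap between the highest control and the lowest mutant was wider than the spread within either group. The log2 fold change was 0.74 with a standard error (SE) of 0.10, and the limma adjusted p was 0.0311. The P-KO level lay within the R-WT range of 69.5 to 104.4 FPKM, and the 3 P-Ctrl mice were the lowest of all 12. The call needed all 6 mice: the adjusted p was between 0.0513 (without P-KO 2) and 0.114 (without P-KO 1) when any 1 of the 6 was left out. In the fit of all 12 mice the limma adjusted p was 0.0142, and 0.124 after the muscle covariate was added to that fit (log2 fold change 0.65). Without the female mice P-Ctrl 2 and P-Ctrl 3 a single control mouse was left, with the spread taken from the P-KO mice alone, and no gene was called in that limma fit (2153 at an unadjusted p under 0.05; *Rian* 0.84, adjusted p = 0.148 by limma). The log2 fold change lay between 0.64 and 0.84 in all 17 alternatives.

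*Meg3*, a noncoding RNA with growth-restraining activity, was at 35.2, 50.2 and 43.8 FPKM in P-Ctrl and at 42.9, 36.3 and 48.9 FPKM in P-KO mice. The groups overlapped fully. The log2 fold change was -0.01 (SE 0.16, adjusted p = 0.985 by limma), and its sign turned when P-Ctrl 2, P-Ctrl 3 or P-KO 2 was left out. *Dlk1* was at 22.0, 23.6 and 24.4 FPKM in P-Ctrl and at 36.3, 26.1 and 36.7 FPKM in P-KO mice. All P-KO mice lay above all P-Ctrl mice, P-KO 2 by little, and the log2 fold change of 0.47 (SE 0.14, adjusted p = 0.121 by limma) did not pass. *Mirg*, a further maternally expressed miRNA host RNA downstream of *Rian* and not a member, was at 6.19 to 8.05 FPKM in P-Ctrl and 8.22 to 13.1 FPKM in P-KO mice, with a log2 fold change of 0.51 (adjusted p = 0.155 by limma). *Rtl1*, annotated on the opposite strand from 109564900 to 109604418, overlaps the end of *Meg3* and the start of *Rian*. It stayed too low to test, and reads of overlapping opposite strands cannot be told apart with this kit.

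Because *Rian* and *Meg3* come from the same strand of the same cluster, their ratio within a mouse was also taken. This ratio, *Mirg*/*Meg3* and *Rian*/*Dlk1* were all chosen after the values were seen. *Rian*/*Meg3* was 1.52, 1.17 and 1.37 in P-Ctrl and 2.39, 2.34 and 2.10 in P-KO mice. The ratio was higher in every P-KO mouse than in every P-Ctrl mouse, and an exact two-sided permutation test of the log2 ratio gave p = 0.1, the smallest that 3 against 3 allows. It was 1.38, 1.72 and 2.36 in R-WT and 1.43, 1.64 and 1.14 in R-Het mice, where the groups overlapped (exact permutation p = 0.3). *Mirg*/*Meg3* had means of 0.164 in P-Ctrl and 0.247 in P-KO mice (exact permutation p = 0.1) and of 0.178 and 0.132 in R-WT and R-Het mice (exact permutation p = 0.5). A single high mouse, R-WT 3, carried the highest ratios of its group in both cases. *Rian*/*Dlk1* was apart in both sets, at 2.43 to 2.49 in P-Ctrl and 2.80 to 3.25 in P-KO mice (log2 difference 0.26) and at 2.30 to 2.34 in R-WT and 3.02 to 3.84 in R-Het mice (0.54), with an exact permutation p = 0.1 in each set.

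**Figure D2:**
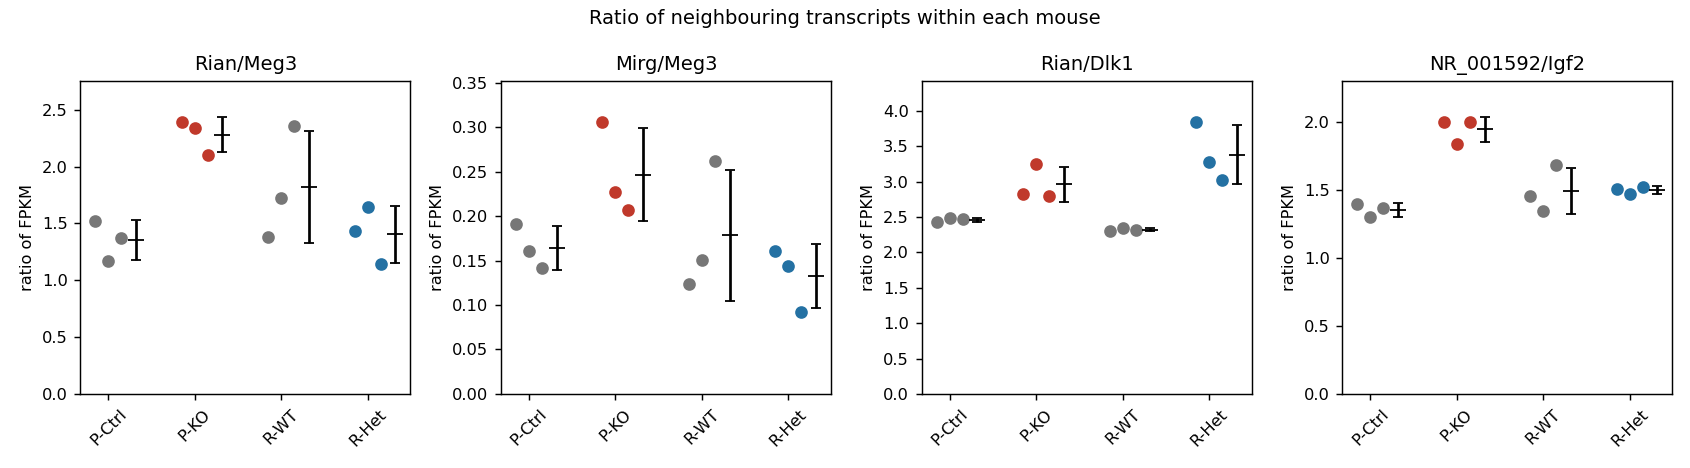
Ratio of FPKM values (linear axis from 0) within each of the 12 mice for *Rian*/*Meg3*, *Mirg*/*Meg3*, *Rian*/*Dlk1* and NR_001592/*Igf2*, by group, with the mean and SD of the 3 mice. For all 4 ratios the P-KO mice lie above the P-Ctrl mice, whereas R-Het mice lie above R-WT mice for *Rian*/*Dlk1* alone and overlap them for the others.

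The growth inhibitors and transcription factors of the set gave smaller differences in P-KO mice. *Grb10*, an adaptor that damps insulin and IGF receptor signalling (chromosome 11, 11930499 to 12037428), was at 121, 130.04 and 126.6 FPKM in P-Ctrl and at 135.2, 135.5 and 159.9 FPKM in P-KO mice. All P-KO mice were above all controls, 2 of them by little, with a log2 fold change of 0.19 (SE 0.09, adjusted p = 0.296 by limma). *Plagl1*, the zinc finger factor on chromosome 10 (13090832 to 13131694), was at 69.7, 78.8 and 71.7 FPKM in P-Ctrl and at 83.8, 83.5 and 84.2 FPKM in P-KO mice. The P-KO mice were nearly identical and all higher, and the log2 fold change was again 0.19 (SE 0.08, adjusted p = 0.220 by limma). *Ndn*, or necdin, a growth-suppressing protein of the MAGE family in the Prader-Willi cluster (chromosome 7, 62348277 to 62349928), was at 64.0, 79.1 and 87.2 FPKM in P-Ctrl and at 95.7, 85.8 and 114.7 FPKM in P-KO mice. Here P-KO 2 lay among the controls, and the log2 fold change of 0.36 (SE 0.15) had an adjusted p of 0.220 in limma.

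The paternally expressed *Peg3*, a zinc finger protein gene on chromosome 7 (6703892 to 6730462), was at 20.95, 19.2 and 17.2 FPKM in P-Ctrl and at 21.2, 29.1 and 25.4 FPKM in P-KO mice. The lowest P-KO mouse was just above the highest control, and the log2 fold change of 0.37 (SE 0.13, adjusted p = 0.168 by limma) did not pass. *Mest*, a paternally expressed enzyme of the hydrolase fold found in mesoderm (chromosome 6, 30733506 to 30748466), was at 192, 309.8 and 268 FPKM in P-Ctrl and at 215.6, 213.5 and 301 FPKM in P-KO mice. The P-Ctrl mice spanned all P-KO mice, so a difference was not detectable at this spread (log2 fold change -0.07, standard error 0.20, adjusted p = 0.881 by limma). *Gnas*, which encodes the stimulatory G protein alpha subunit and further products from other starts (chromosome 2, 174284320 to 174346744), was at 1060, 1536 and 1459 FPKM in P-Ctrl and at 1272, 1158 and 1290.02 FPKM in P-KO mice. Again the controls enclosed the mutants, with a log2 fold change of -0.11 (SE 0.15, adjusted p = 0.725 by limma).

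NR_001592, attributed to *H19* (chromosome 7, 142575530 to 142578146 for the current *H19* record), was at 2920.3, 2656 and 2769.5 FPKM in P-Ctrl and at 2275, 2021 and 2673 FPKM in P-KO mice. P-KO 1 and 2 were below all controls and P-KO 3 was among them. The log2 fold change was -0.27 (SE 0.13, adjusted p = 0.271 by limma). Its neighbour *Igf2*, the fetal growth factor that shares enhancers with *H19* and is expressed from the other parental copy, is no member but lies in the same cluster. *Igf2* was at 2090.4, 2043 and 2023 FPKM in P-Ctrl and at 1136, 1099.7 and 1337 FPKM in P-KO mice. It fell in P-KO mice to 0.58 of the control mean (log2 fold change -0.79, standard error 0.10, adjusted p = 0.0269 by limma), with no overlap of the groups. The call was lost in 9 of 15 alternatives, among them each in which 1 mouse was left out (limma adjusted p from 0.0595 without P-KO 3 to 0.114 without P-KO 1), and was kept in the fit of all 12 mice without and with the muscle covariate (limma adjusted p 0.00466 and 0.0389). NR_001592/*Igf2* was 1.36 ± 0.05 in P-Ctrl and 1.95 ± 0.09 in P-KO mice (SD, n = 3 each, exact permutation p = 0.1), a comparison chosen after the values were seen.

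The second comparison asks what 1 missing copy of *Runx2* did to the same genes. In R-Het mice none of the 9 matched genes passed the test, against 1.89% of all genes in either direction. The 3 R-Het mice exceeded all 3 R-WT mice for 3 of the 9, *Meg3*, *Plagl1* and *Ndn*, against 10.7% of all genes, and NR_001592 did the same. As a group, the 9 had a median log2 fold change of 0.22, beside 0.02 for all genes tested. At an unadjusted p under 0.05, 4 of the 9 genes passed in this comparison and 5 of 9 in P-KO mice, against 15.4% and 21.3% of all genes.

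*Meg3* was at 50.3, 44.5 and 44.3 FPKM in R-WT and at 67.0, 59.3 and 82.7 FPKM in R-Het mice. All R-Het mice were above all R-WT mice and above all mice of the other set, with a log2 fold change of 0.57 (SE 0.13) that missed the threshold (adjusted p = 0.0753 by limma). In the fit of all 12 mice the limma adjusted p was 0.105, and 0.868 with the muscle covariate (log2 fold change 0.29, SE 0.22). *Plagl1* was at 84.3, 98.1 and 86.5 FPKM in R-WT and at 121.5, 119.95 and 113.6 FPKM in R-Het mice. The R-Het mice were the highest 3 of all 12, and the log2 fold change was 0.40 (SE 0.09, adjusted p = 0.0716 by limma). *Plagl1* passed in the fit of all 12 mice (adjusted p = 0.0430 by limma), where 1 of the 9 genes was called, and was 0.32 (adjusted p = 0.664 by limma) when the muscle covariate was added to it. *Ndn* was at 76.8, 88.4 and 98.0 FPKM in R-WT and at 123, 115.6 and 113 FPKM in R-Het mice. These groups too were apart, with a log2 fold change of 0.42 (SE 0.10, adjusted p = 0.0963 by limma).

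NR_001592 was at 2927, 2949.65 and 3266 FPKM in R-WT and at 3861, 3479 and 4212 FPKM in R-Het mice. All R-Het mice were higher than all other mice, with a log2 fold change of 0.33 (SE 0.12, adjusted p = 0.240 by limma). *Igf2* was at 2013, 2191 and 1941 FPKM in R-WT and at 2555, 2368 and 2765 FPKM in R-Het mice, a log2 fold change of 0.32 (adjusted p = 0.222 by limma). NR_001592/*Igf2* was 1.49 ± 0.17 in R-WT and 1.501 ± 0.028 in R-Het mice (SD, n = 3 each), and R-WT mice, from 1.35 to 1.68, spanned the R-Het mice (log2 difference 0.01, exact permutation p = 0.9 in a design that allows no p under 0.1). Muscle markers did not overlap between R-WT and R-Het mice, and their part in these differences was not tested further.

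The other genes of the set overlapped between R-WT and R-Het mice. *Rian* was at 69.5, 76.7 and 104.4 FPKM in R-WT and at 95.9, 97.3 and 94.5 FPKM in R-Het mice (log2 fold change 0.22, standard error 0.14, adjusted p = 0.530 by limma). R-WT 3 was the highest of the 6. *Dlk1* was at 30.2, 32.8 and 45.03 FPKM in R-WT and at 24.95, 29.7 and 31.3 FPKM in R-Het mice, the only gene besides *Mest* with a lower mean in R-Het mice (log2 fold change -0.31, standard error 0.16, adjusted p = 0.409 by limma). *Grb10* spanned 121 to 131.5 FPKM in R-WT and 128.9 to 157.4 FPKM in R-Het mice (log2 fold change 0.19), and *Peg3* spanned 22.1 to 26.5 and 24.5 to 37.0 FPKM (0.39). R-Het 3 stood apart from the other R-Het mice in several genes: *Mest* was at 228.6 and 253.5 FPKM in R-Het 1 and 2 but at 130.02 FPKM in R-Het 3, and *Gnas* at 1711 and 1789.7 but 1263 FPKM. Without R-Het 3 the log2 fold change of *Mest* turned from -0.17 to 0.12.

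**Figure D3:**
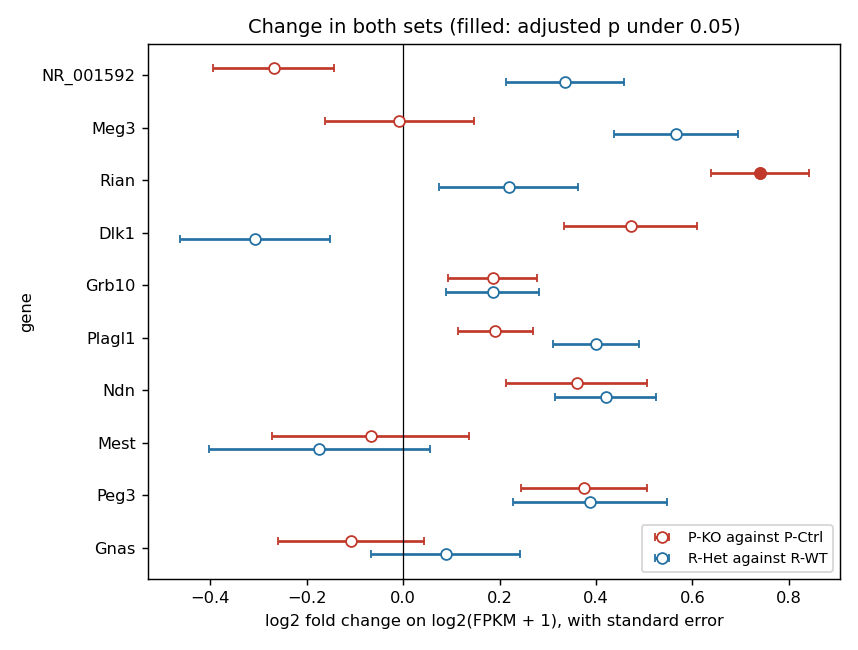
Log2 fold change on log2(FPKM + 1), with its standard error, of NR_001592 and the 9 matched imprinted genes in P-KO against P-Ctrl and R-Het against R-WT mice (3 against 3 each). The filled point, *Rian* in P-KO mice at 0.74, is the only one with an adjusted p under 0.05, and *Peg3*, *Ndn* and *Grb10* lie at nearly the same value in both sets.

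Set side by side, 5 of the 9 genes (*Rian*, *Grb10*, *Plagl1*, *Peg3* and *Ndn*) had a log2 fold change above 0 in both sets and *Mest* was below 0 in both. *Dlk1* was above 0 in P-KO and below 0 in R-Het mice, while *Meg3* and *Gnas* were the reverse. The share with the same direction was 66.7%, beside 69.4% of the 36 other imprinted genes tested and 56.8% of all genes tested. The control groups of the 2 sets are separate mice. These directions held under both other scalings of the libraries. A test of the difference between the sets in a fit of all 12 mice called 0.153% of all genes and none of the 9 genes. Those with the largest differences were *Dlk1* (0.78, standard error 0.23, adjusted p = 0.134 by limma), *Meg3* (-0.57, adjusted p = 0.233 by limma) and *Rian* (0.52, adjusted p = 0.215 by limma). At an unadjusted p under 0.05, *Dlk1*, *Meg3* and *Rian* passed, as did 15.3% of all genes, and NR_001592 had a difference of -0.60 (adjusted p = 0.121 by limma), which passed with the libraries rescaled to the same sum (-0.74, adjusted p = 0.0465 by limma). *Igf2* differed between the sets by -1.11 (SE 0.14, adjusted p = 0.0196 by limma), with all 3 P-KO mice below and all 3 R-Het mice above their controls.

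The control groups of the sets were compared as well. Of the 9, 8 had a log2 difference below 0 in P-Ctrl against R-WT mice, with a median of -0.19 beside -0.04 for all genes, and the groups did not overlap for 4, all lower in P-Ctrl mice, against 10.8% of all genes that were lower without overlap. The 4 were *Rian* (-0.51, adjusted p = 0.393 by limma), *Dlk1* (-0.59, adjusted p = 0.359 by limma), *Peg3* (-0.33, adjusted p = 0.421 by limma) and *Plagl1* (-0.28, adjusted p = 0.425 by limma), and none passed the test, which called 0.0383% of all genes. For the same 4 genes the P-Ctrl mice were the lowest 3 of all 12 mice, a position that 3.84% of all genes shared. All 4 also belong to the 5 genes that were higher in every P-KO mouse, and this comparison shares the P-Ctrl mice with that one. The counts and shares in this paragraph are for the deposited values. Their sums were 891329 to 988236 in P-Ctrl and 936363 to 1068933 in R-WT mice. With the libraries rescaled to the same sum, *Plagl1* and *Peg3* overlapped between P-Ctrl and R-WT mice. For these genes the P-Ctrl mice were then no longer the lowest 3. P-Ctrl and R-WT mice differ in cross, and their muscle, osteoblast and epidermis marker sums did not overlap, so these cannot be told apart. R-Het mice were the highest 3 of all 12 for NR_001592, *Meg3* and *Plagl1*, a position that 2.86% of all genes shared.

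Whether the genes move together was also asked between mice of the same genotype. For each gene the deviation of a mouse from the mean of its own group was taken on log2(FPKM + 1), and deviations were correlated over the 12 mice for all 45 pairs of the 10 genes, NR_001592 included. Of the 45 pairs, 35 had a Pearson r above 0 and the median r was 0.31. No pair passed after Benjamini-Hochberg adjustment over the 45 pairs, and 11 had an unadjusted p under 0.05. The exact permutation test regrouped the mice within groups in all 1296 ways. The share of pairs among all genes that reach such a p was not taken, so the 11 pairs are a description. For each of the 10 genes the median r with all other genes tested lay between -0.06 and 0.09. With the libraries rescaled to the same sum, the median r was 0.34 and 37 of the 45 pairs had an r above 0. With values centred on the median gene, the median r was 0.26, 36 pairs were above 0 and 3 passed after adjustment. The genes also share the library itself, whose part in these r was not tested. On the values as reported, the median r was 0.55 among the 6 mice of the P set and 0.09 among the 6 mice of the R set, and the difference between the sets was not tested.

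The strongest pair was *Gnas* and *Mest* (Pearson r = 0.90, Spearman rho = 0.84, exact permutation p = 0.00231 for r, adjusted 0.0521, and p = 0.00386 for rho, adjusted 0.0521). Without the 2 mice farthest from the median of *Gnas*, r was 0.77, and within the P and R sets it was 0.85 and 0.95. *Rian* and *Dlk1*, which lie in the same cluster but are expressed from different parental copies, had r = 0.89 (rho = 0.88, exact permutation p = 0.0100 and 0.0224, adjusted 0.0810 and 0.116), 0.83 without 2 mice, 0.97 in the P set and 0.86 in the R set. *Grb10* and *Mest* had r = 0.88 (rho = 0.91, exact permutation p = 0.00617 and 0.00309, adjusted 0.0694 and 0.0521), 0.82 without 2 mice. *Meg3*, by contrast, had r = 0.14 with *Rian* (rho = 0.21, exact permutation p = 0.583 and 0.502, adjusted 0.795 and 0.706), which was 0.82 in the P set and -0.34 in the R set.

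*Peg3* had an r above 0 with 4 of the other 9 genes (*Grb10* 0.52, *Mest* 0.47, *Plagl1* 0.38 and *Gnas* 0.22) and below 0 with the rest. Its r was -0.65 with *Dlk1* (rho = -0.64, exact permutation p = 0.0432 and 0.0494, adjusted 0.183 and 0.202) and -0.62 with *Meg3* (rho = -0.64, exact permutation p = 0.114 and 0.0802, adjusted 0.341 and 0.278). Its median r with the other 9 genes was -0.24. NR_001592 had a median r of -0.05 with the other 9. *Gnas*, with 0.50, and *Mest*, with 0.47, had the highest. Among all other genes tested, the 8 named genes with the highest mean r to the 10 genes were *Smarcd3*, *Tubb4b*, *Tro*, *Csnk1g2*, *Mfap2*, *Ptms*, *Gnb2* and *Klhdc3*, with mean r from 0.56 down to 0.54 over the 12 mice.

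For each pair, the 2 mice farthest from the median of its first gene were also left out. The median r was then 0.23 and 30 of the 45 pairs had an r above 0, against 0.31 and 35 with all mice. The mice differed in how many of the 10 genes lay above their group mean. All 10 genes were above the group mean in P-KO 3, whereas only *Peg3* was above it in P-KO 2. In P-Ctrl 2, 9 of the 10 were above the mean, and in P-Ctrl 1 only 2 were. In the R set no mouse had more than 7 or fewer than 3 of the 10 above its group mean. The correlation of a gene's deviation with the mean of the 10 skeletal muscle markers over the 12 mice lay between -0.48 (*Meg3*) and 0.38 (NR_001592), and with the 10 osteoblast markers between -0.80 (NR_001592) and 0.55 (*Peg3*), given here as descriptions. With the endothelial markers it was above 0 for 9 of the 10 genes, from 0.20 (NR_001592) to 0.68 (*Ndn*), and -0.27 for *Peg3*. The share of all genes above 0 was not taken. With the 7 erythroid markers tested it was 0.69 for *Mest*, 0.64 for *Grb10*, 0.63 for *Peg3* and 0.60 for *Gnas*. It was -0.67 for NR_001592 and -0.50 for *Meg3*, and the others lay between -0.21 (*Dlk1*) and 0.29 (*Plagl1*). With the 3 epidermis markers it ran from -0.70 (*Plagl1*) to 0.84 (NR_001592). With the adipocyte markers it ran from -0.68 (*Peg3*) to 0.32 (*Meg3*), with cartilage from -0.44 (*Meg3*) to 0.36 (*Dlk1*) and with brain from -0.24 (*Peg3*) to 0.15 (*Meg3*). Their part in the correlations between the genes was not tested. With the osteoblast markers the other values were -0.67 for *Dlk1*, -0.58 for *Meg3*, -0.53 for *Ndn*, -0.50 for *Rian* and -0.05 for *Grb10*. They were 0.39 for *Plagl1*, 0.10 for *Gnas* and 0.04 for *Mest*.

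**Figure D4:**
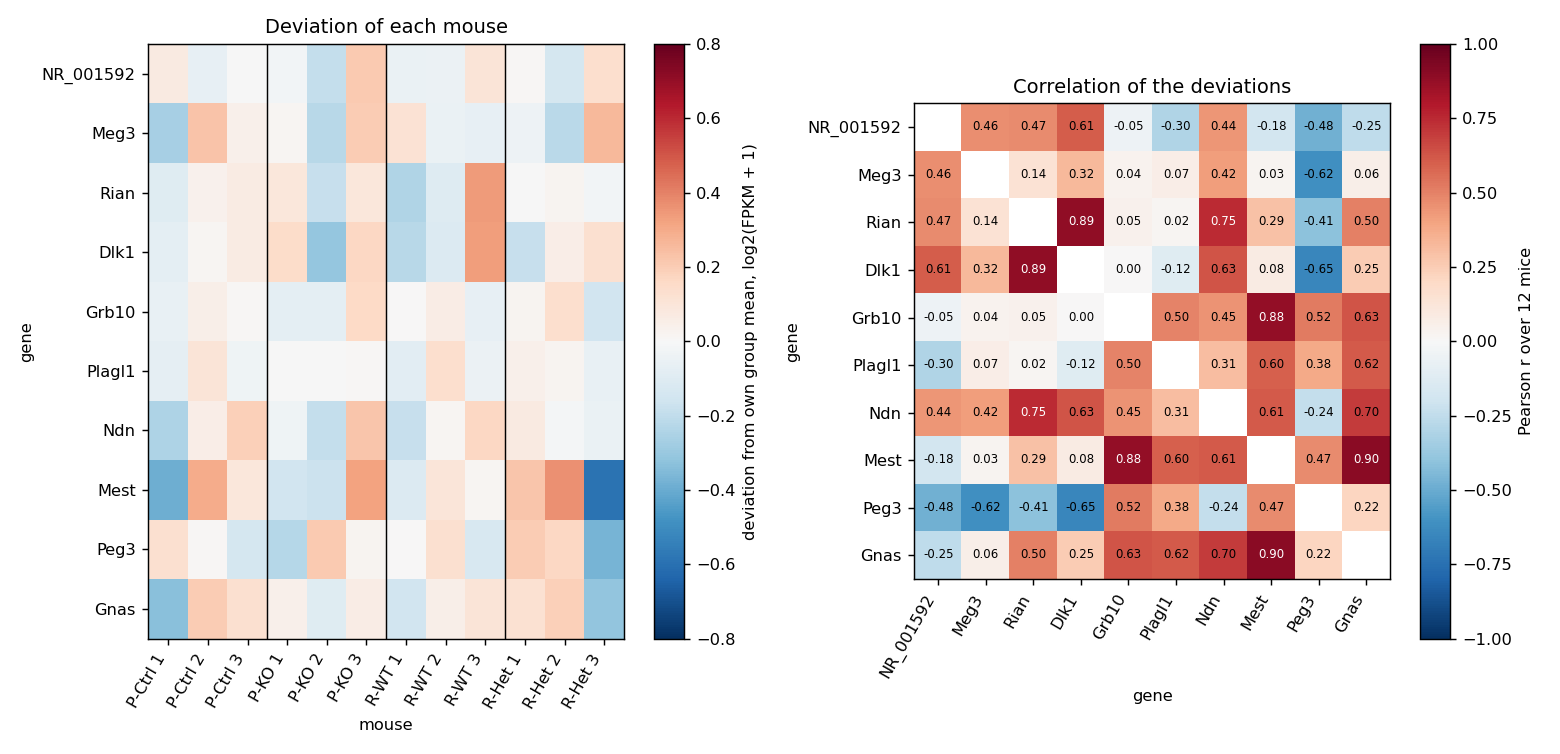
Left, deviation of each mouse from its group mean on log2(FPKM + 1) for the 10 genes, with lines between the groups. Right, Pearson r of these deviations over the 12 mice for each of the 45 pairs: *Gnas* with *Mest* at 0.90 and *Rian* with *Dlk1* at 0.89 are the highest, and *Peg3* is negative with *Dlk1*, *Meg3* and NR_001592.

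Other imprinted genes were taken from a list of 57, of which 54 were in the files and 36 passed the filter. In P-KO mice 2 of the 36 passed the test, *Igf2* as lower and *Peg12* as higher, against 1.57% of all genes, and 26, or 72.2%, had a log2 fold change above 0 (median 0.09), beside 61.3% of all genes (median 0.06). *Peg12*, an intronless gene of the Prader-Willi cluster like *Ndn*, was at 2.22, 2.74 and 2.30 FPKM in P-Ctrl and at 4.28, 4.13 and 4.49 FPKM in P-KO mice (log2 fold change 0.64, standard error 0.11, adjusted p = 0.0430 by limma). The call was lost in 13 of 15 alternatives, each one without 1 mouse included (limma adjusted p from 0.0864 to 0.165). *Nnat*, which encodes the small membrane protein neuronatin, had the largest log2 fold change, 1.57, but P-KO 1 alone was at 65.9 FPKM beside 12.98 and 15.2 FPKM in the other P-KO mice, and it did not pass (adjusted p = 0.203 by limma). The brain marker sum was also highest in P-KO 1, at 26.1 FPKM beside 11.6 and 13.5 FPKM in P-KO 2 and 3, and its part in the value of *Nnat* was not tested. *Snrpn*, a splicing protein gene of the Prader-Willi cluster, had 0.54 (adjusted p = 0.231 by limma). *Igf2r*, which clears IGF2 from the cell surface, had -0.32 (adjusted p = 0.248 by limma), and reads of its antisense RNA *Airn* cannot be told apart from it where both overlap.

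In R-Het mice 1 of the 36 passed, against 1.89% of all genes. *Calcr*, the calcitonin receptor, which is high in osteoclasts, was at 2.95, 2.46 and 1.99 FPKM in R-WT and at 0.704, 0.447 and 0.959 FPKM in R-Het mice, without overlap (log2 fold change -1.03, standard error 0.17, adjusted p = 0.0320 by limma). Its limma adjusted p was above the threshold without any 1 mouse but R-Het 3, the highest being 0.130 without R-WT 1 (log2 fold change -0.93), and was 0.0673 in the fit of all 12 mice and 0.721 when the muscle covariate was added to it (-0.81). *Cdkn1c*, the cell cycle inhibitor p57 of the *Igf2* region, was at 268.7, 280.6 and 366.7 FPKM in R-WT and at 487.7, 472.8 and 420.6 FPKM in R-Het mice. All R-Het mice were higher, with a log2 fold change of 0.60 (adjusted p = 0.0724 by limma), which passed with the libraries rescaled to the same sum (0.64, adjusted p = 0.0452 by limma) and without R-WT 3 (0.74, adjusted p = 0.0425 by limma). In P-KO mice *Cdkn1c* had 0.36 (adjusted p = 0.290 by limma). *Slc22a18*, a transporter gene of the same region, had 0.64 (adjusted p = 0.179 by limma) and *Qpct*, an enzyme gene, -0.41 (adjusted p = 0.132 by limma) in R-Het mice. *Magel2*, a neighbour of *Ndn*, stayed under 0.34 FPKM in every mouse and was not tested.

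**Figure D5:**
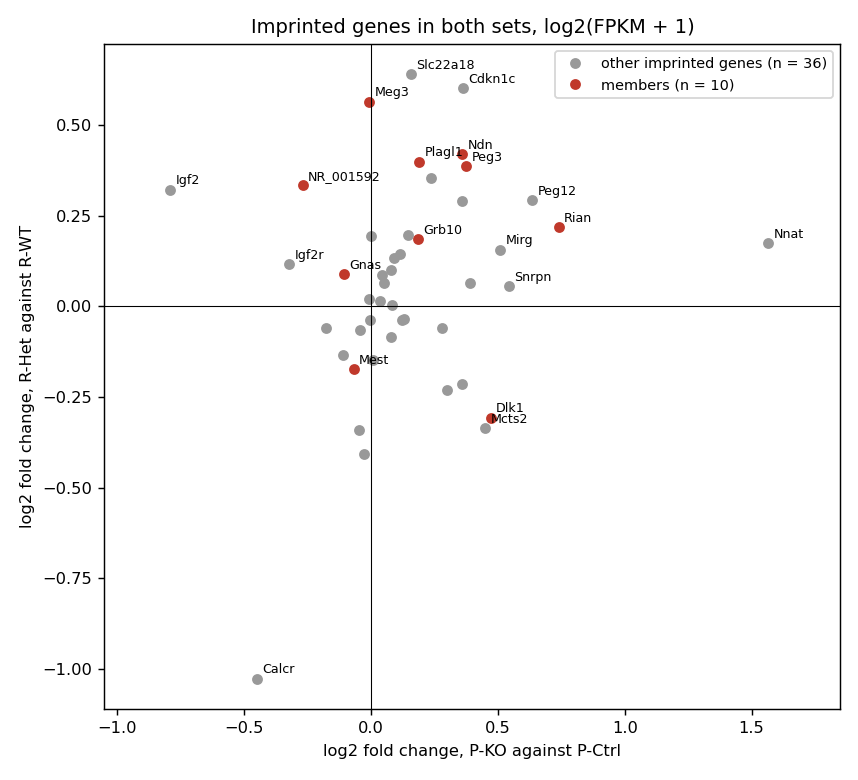
Log2 fold change on log2(FPKM + 1) of NR_001592 and the 9 matched genes (red) and of the 36 other imprinted genes tested (grey), P-KO against P-Ctrl on the horizontal and R-Het against R-WT on the vertical axis. *Igf2* lies far to the left at -0.79 and above 0, *Calcr* at the bottom at -1.03, and 5 of the 10 red points in the upper right part, above 0 in both sets.

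Transcripts add detail for the genes with several of them, with the limit that the split of reads over transcripts is an estimate. *Gnas* had 9 transcripts in the files, of which the noncoding NR_003258 held 55.3% of the sum over the 12 mice, NM_201616 24% and NM_001077510 12%. With coding transcripts alone, an alternative added after the data were seen, the log2 fold change of *Gnas* in P-KO mice moved from -0.11 to 0.01. *Mest* was shared by NM_001252293 with 49.8% and NM_008590 with 48.2%, and *Copg2*, which overlaps the end of *Mest* on the opposite strand, had log2 fold changes of 0.08 and 0.00 in the 2 sets. *Grb10* was held at 76.4% by NM_010345 and at 23.6% by NM_001177629, *Dlk1* at 93.4% by NM_010052 and *Meg3* at 92.3% by NR_027652. *Rian*, *Plagl1*, *Peg3*, *Ndn* and NR_001592 each had 1 transcript, so their values do not depend on such a split.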

How the data were processed

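Total RNA of calvaria from 12 mice was sequenced, and the authors deposited 1 FPKM value per RefSeq transcript (30411) and mouse. The unit was inferred from the values, the depth is an estimate from the smallest of them, and the program that made them is not given in the sources used here. The submitters' processing notes name Bowtie 0.12.8 and mm10. Transcripts were matched by accession to the NCBI table of GRCm38 (29835), the GENCODE M21 table (180) or neither (396) and summed by gene. Each mutant group was compared with its controls by limma 3.58.1 (R 4.3.3, mean-variance trend, no covariate, two-sided) on log2(FPKM + 1) for genes that reached 1 FPKM in 3 or more mice, with an adjusted p threshold of 0.05. The difference between the sets and P-Ctrl against R-WT were fitted likewise. Deviations from group means were correlated with exact permutation tests (Python 3.11.15, numpy 2.4.6, pandas 2.3.3, scipy 1.17.1, figures with matplotlib 3.10.9). The fits were tested on simulated data. The members and lists were chosen with earlier results of these data known. Named were all members, other imprinted genes that passed (at most 8 per set), the 4 with the largest change per set, *Igf2*, *Igf2r*, *Cdkn1c* and *Magel2*, the 8 genes most like the members, and *Med23*, *Runx2* and *Xist*. *Mirg*, *Rtl1*, *Airn*, *Copg2* and *Mcts2* were named after their values were seen, as neighbours or because they differed between the sets. Replicates are separate mice by the labels. Batches are not given in the sources used here, so no value within batches could be had.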

Additional observations from a re-analysis of the deposited data

Results flagged for a closer look

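*Igf2* drew attention because its change differed between the sets by -1.11 on the log2 scale in a direct test (standard error 0.14, adjusted p = 0.0196 by limma), with values of -0.79 in P-KO and 0.32 in R-Het mice. The adjusted p was above 0.05 in 10 of 20 alternatives, and the difference stayed between -1.25 and -1.06 in all of them. *Mcts2*, an imprinted retrogene on chromosome 2, was higher in all 3 P-KO mice and lower in all 3 R-Het mice than in all their controls. Its change differed between the sets by 0.79 (standard error 0.18, adjusted p = 0.0763 by limma), which did not pass. Its levels were 16.3, 18.8 and 21.9 FPKM in P-Ctrl, 24.0, 30.9 and 24.0 FPKM in P-KO, 23.3, 23.0 and 27.6 FPKM in R-WT and 18.7, 18.3 and 20.8 FPKM in R-Het mice. The P-Ctrl and R-Het ranges overlapped, as did those of P-KO and R-WT mice.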

How the results depend on the processing

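With 3 mice in each group, differences smaller than the spread between mice were not detectable. Some larger differences, without overlap of the groups, did not pass either. Examples were *Dlk1* in P-KO mice (log2 fold change 0.47, adjusted p = 0.121 by limma) and *Plagl1* in R-Het mice (0.40, adjusted p = 0.0716 by limma). The muscle covariate was added to the fit of all 12 mice, and without the *Xist*-positive mice the P set kept 1 control mouse, with its spread taken from the P-KO mice, so that the fall in calls there cannot be read as an effect of sex. The number of the 9 genes called in P-KO mice, 1 as reported (*Rian*), was 0 with the muscle covariate, without a filter on low values, with unmoderated variances and without P-Ctrl 2, P-Ctrl 3 and R-WT 1, and 0 whichever mouse was left out. It stayed 1 in 7 of 17 alternatives. In R-Het mice it was 0, and 1 (*Plagl1*) in the fit of all 12 mice. Among the other imprinted genes, 2 were called in P-KO mice, but 1 with the muscle covariate, centring on the median gene, rescaling to the same sum or the replicate block, 0 without the filter, with unmoderated variances or without the 3 *Xist*-positive mice, and 0 whichever mouse was left out. In R-Het mice 1 was called, 2 after rescaling (*Calcr* and *Cdkn1c*), 0 in the fit of all 12 mice, with the muscle covariate, without the filter, with the replicate block, with unmoderated variances or without the *Xist*-positive mice, and 0 to 1 without any 1 mouse. Over all genes, 205 were called in P-KO mice, and 717 in the fit of all 12 mice, 45 when the muscle covariate was added to that fit, 107 after rescaling, 35 without the filter, 0 with unmoderated variances (2356 at an unadjusted p under 0.05), 0 without the *Xist*-positive mice (2153 at an unadjusted p under 0.05) and 0 to 35 without any 1 mouse. In R-Het mice 247 became 95, 2, 18, 90, 1 and 34 with all 12 mice, all 12 mice and the muscle covariate, no filter, the replicate block, unmoderated variances and without R-WT 1, and 34 to 169 without any 1 mouse. The difference between the sets, 20 genes, became 37 after rescaling (20 higher and 17 lower, against 8 and 12), 0 with the muscle covariate (634 at an unadjusted p under 0.05), 2 without the filter, 136 with the replicate block, 1 with unmoderated variances, 1 without the *Xist*-positive mice and 2 to 164 without any 1 mouse. The comparison of P-Ctrl with R-WT called 5 genes, and 4 to 10 without any 1 mouse. No pair of genes passed the co-variation test as reported, and 3 passed with values centred on the median gene. Signs turned for *Meg3* in P-KO mice (0.17 with the muscle covariate, 0.26 without the *Xist*-positive mice, -0.14 to 0.11 without any 1 mouse), *Gnas* in P-KO mice (0.0097 with coding transcripts, added after the data were seen, and 0.22 without the *Xist*-positive mice), *Mest* in P-KO mice (0.32 without them, -0.26 to 0.082 without any 1 mouse), *Gnas* in R-Het mice (-0.0062 to 0.25 without any 1 mouse) and *Mest* in R-Het mice (-0.36 to 0.12 without any 1 mouse). All of these had log2 fold changes of at most 0.17 in size as reported, and the cause was not tested. The directions of the other members and of *Igf2*, *Peg12*, *Calcr* and *Cdkn1c* in both sets held in all alternatives run for them.

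Replicate numbers were not used to pair the mice in the fits as reported. The correlation of deviations between same-numbered mice was 0.18, 0.26 and 0.05 in the P set and 0.00, -0.05 and -0.08 in the R set, and each mouse correlated best with its own number in the P set and not in the R set. With the replicate block 273 genes were called in P-KO mice, and *Rian* was kept (adjusted p = 0.0412 by limma).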
